A study of Drosophila melanogaster with 13 samples.

Results

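The open chromatin of Drosophila eye-antennal discs was compared between tumors and wild type tissue by FAIRE-seq alone, using 4 of the 13 samples of the study and all 36506 merged regions with counts. Wild type discs came from the w;;FRT82 line (here FRT82) and from CantonS, with 1 library each. The tumors are 1 early and 1 late library from the same cross, in which 1 parent carried y,w,eyFlp with the flip-out driver act>y+>Gal4, UAS-GFP, and FRT82 with Tub-Gal80, and the other carried UAS-RasV12 and FRT82 with scrib2. Each library pools 200 discs taken from 150 head complexes, all from larvae labelled as wandering in the third instar, although by the methods of the study the late tumors were collected days later, from larvae that do not pupate. FRT82 and CantonS carry neither the flipase, driver and repressor chromosomes nor the transgenes, so that genotype, strain background and tumor state cannot be told apart. The flipase is driven by an eyeless enhancer. RasV12 and the loss of scrib are confined to clones, so a disc can also hold cells without them. By the study's account, normal tissue still made up a large part of the early eye disc. In the late phase, tumor tissue had taken over the whole of it. Since each library is a different strain or stage, the p-values measure the spread between these 4 libraries.

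FAIRE separates DNA that formaldehyde did not crosslink to nucleosomes from the rest of the chromatin, and so recovers enhancers and promoters from which nucleosomes have been displaced. RasV12 is a constantly active form of the Ras GTPase, which acts below the EGF receptor, and Scribble is a scaffold protein that keeps epithelial cells polarized. Discs in which clones combine both lesions are known to overgrow, to activate JNK and JAK/STAT signaling and to fail to differentiate photoreceptors. In pooled discs a larger share of cells with an open region and a greater opening per cell cannot be told apart.

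More regions were called opening than closing in the tumors, but this excess depended on the scaling and on the CantonS library, as described below. At an adjusted p under 0.01 in edgeR's quasi-likelihood test, 575 regions opened, 1.58% of those tested, and 285 closed, 0.781% of those tested. The opening regions had a median log2 fold change of 1.63, between 0.89 and 4.53, and the closing regions had a median of -1.68, while the median of all regions was 0.01. Both tumors lay above both wild types at every opening region, which was also the case at 28.5% of all regions, and both lay below at every closing region, against 25.9% of all regions. In FRT82, CantonS, the early and the late tumor, the median level of the opening regions was 41.5, 35.9, 95.8 and 147 CPM per kb of region, where CPM is the read count scaled to the size of the library, and that of the closing regions 101, 80.6, 33.8 and 22.5. The same medians over all regions were 56.5, 56.1, 57.5 and 61.6 CPM per kb. Without division by length, the medians in FRT82 and CantonS were 19.9 and 17.6 CPM for opening, 55.2 and 46.3 CPM for closing and 15.4 and 14.998 CPM for all regions. In the wild types the closing regions thus stood above the median of all regions on both scales, and the opening regions below it per kb and above it in CPM. The wild type values entered the calls, and these levels are a description.

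**Figure D1:**
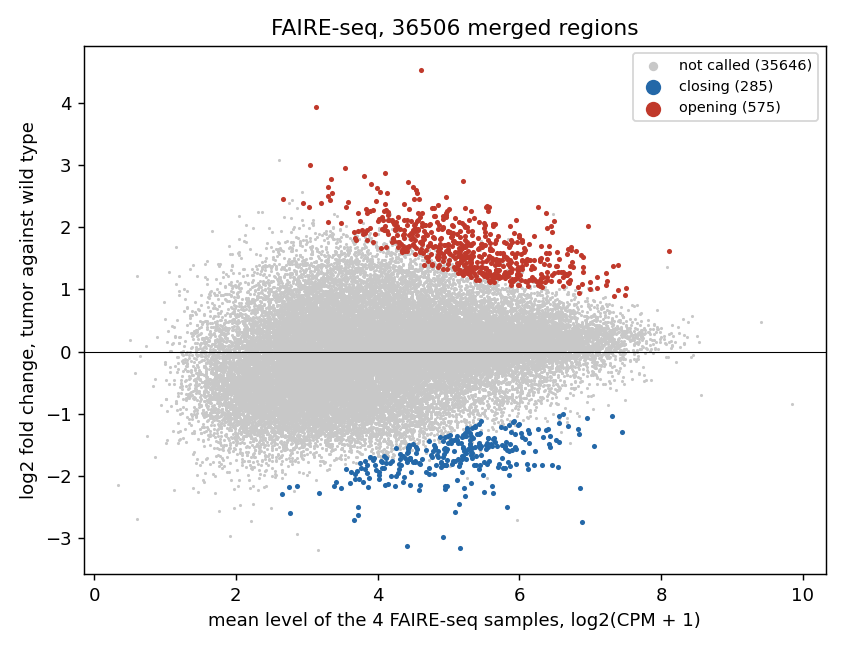
Log2 fold change of tumor against wild type by FAIRE-seq (y axis) against the mean level of the 4 libraries as log2(CPM + 1) (x axis), with 1 point per merged region; 575 opening regions are red, 285 closing regions blue and the others gray. Called regions need a larger fold change at low levels, and 3 called regions without reads in either tumor lie below the plotted range.

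The number of calls depended on single libraries. Without the late tumor, 44 regions opened and 26 closed, and without the early tumor 1798 opened and 1156 closed. Without FRT82, 1220 opened and 493 closed, and without CantonS 485 opened and 616 closed. Of the 575 and 285 regions, 41 and 25 were called whichever library was left out, among them those of Imp, Bsg, Ilp8, Ets21C, fru and Snap25, which opened, and that of ImpE2 and Eip63E, which closed. Normalizing by total counts left 525 opening and 460 closing regions, so that the share of opening fell from 66.9% to 53.3%, and the upper quartile gave 52.9%. These scalings moved the median log2 fold change of all regions by -0.11 and -0.12. The 4 libraries held between 2375435 reads (FRT82) and 5792887 reads (CantonS) in the merged regions. Across regions, Pearson's r of log2(CPM + 1) was 0.93 between the wild types and 0.95 between the tumors. With FRT82 and CantonS, r was 0.917 and 0.920 for the early tumor and 0.850 and 0.851 for the late tumor. These values are a description, since regions are not replicates. Calls were also set by depth. When the regions were split into 4 groups of about equal size by mean count, 0.0875% of the group with the lowest counts were called, and 4.90% of the group with the highest.

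The early and late tumors were set against the mean of both wild types. At opening regions the early tumor exceeded the wild type mean by a median of 1.24 on the log2(CPM + 1) scale, and the late tumor by 1.81. At closing regions the medians were -1.36 and -1.91. The late library was above the early one at 545 of the 575 opening regions and at 26 of the 285 closing regions, against 49.3% of all regions. It lay beyond the early one in the direction of the fold change at 545 opening and 256 closing regions, and at 26280 of all 36506 regions. With 1 library per stage this difference has no replicate check and was not tested. The stages also differ in larval age and, by the study's account, in the share of normal tissue.

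**Figure D2:**
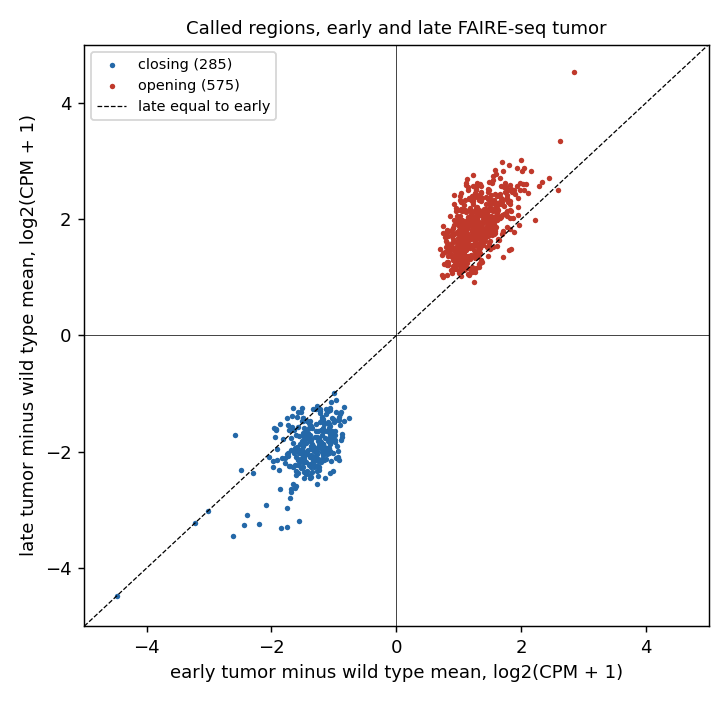
Early (x axis) and late tumor (y axis) minus the mean of both wild types, in log2(CPM + 1), at the 575 opening (red) and 285 closing (blue) regions; the dashed line marks equal values. Most red points lie above the line and most blue points below it, as 545 opening regions were higher in the late than in the early library.

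In the study's own peak lists, made by the authors for each library, 297 of the 575 opening regions overlapped a peak of both tumors and of neither wild type, or 51.7%, against 4.53% of all regions. Another 76 overlapped a peak of the late tumor only, or 13.2% against 7.41% of all regions. A wild type peak overlapped 32.5% of the opening regions and 52.6% of all regions by at least 1 bp. When 40% of the merged region had to be covered, these shares were 12.5% and 44.6%. Of the closing regions, 91.2% overlapped a wild type peak by at least 1 bp, and 52.6% of all regions did. Of the closing regions, 132 overlapped a peak of both wild types and of neither tumor, or 46.3%, against 2.22% of all regions. These shares rest on the same reads as the calls. Called regions were longer than others, with a median of 483 bp for opening and 559 bp for closing regions against 269 bp for all. CTCF, an insulator protein, was mapped by ChIP-seq in CantonS discs. A CTCF peak covered by at least 40% lay in 10 opening regions (1.74%) and 17 closing regions (5.96%), and in 5.80% of all regions.

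The study paired regions with genes when they lay in an intron or upstream of the gene, and listed pairs whose gene and region both rose or both fell in the tumors. These lists were chosen on these samples, so that the direction of their members is not independent evidence. Of the 209 regions paired with upregulated genes, 66 opened by FAIRE-seq and none closed, and the median log2 fold change was 1.21. Of the 276 regions paired with downregulated genes, 66 closed and none opened, with a median of -1.21. Of the 66 listed regions described here, which belong to 67 genes of 12 functional groups, 24 of 35 opened and 10 of 31 closed. These are 68.6% and 32.3%, against 31.6% of the 209 and 23.9% of the 276. The groups were chosen with earlier results of these data known, so that the counts called per group and the order of group medians can follow from that choice. Without the late tumor the 24 became 4 (Ets21C, Ilp8, Imp and fru) and the 10 became 1, the region shared by ImpE2 and Eip63E. Without CantonS, 16 of the 24 and 10 of the 10 were called, without FRT82 24 and 8, and without the early tumor 24 and 10.

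**Figure D3:**
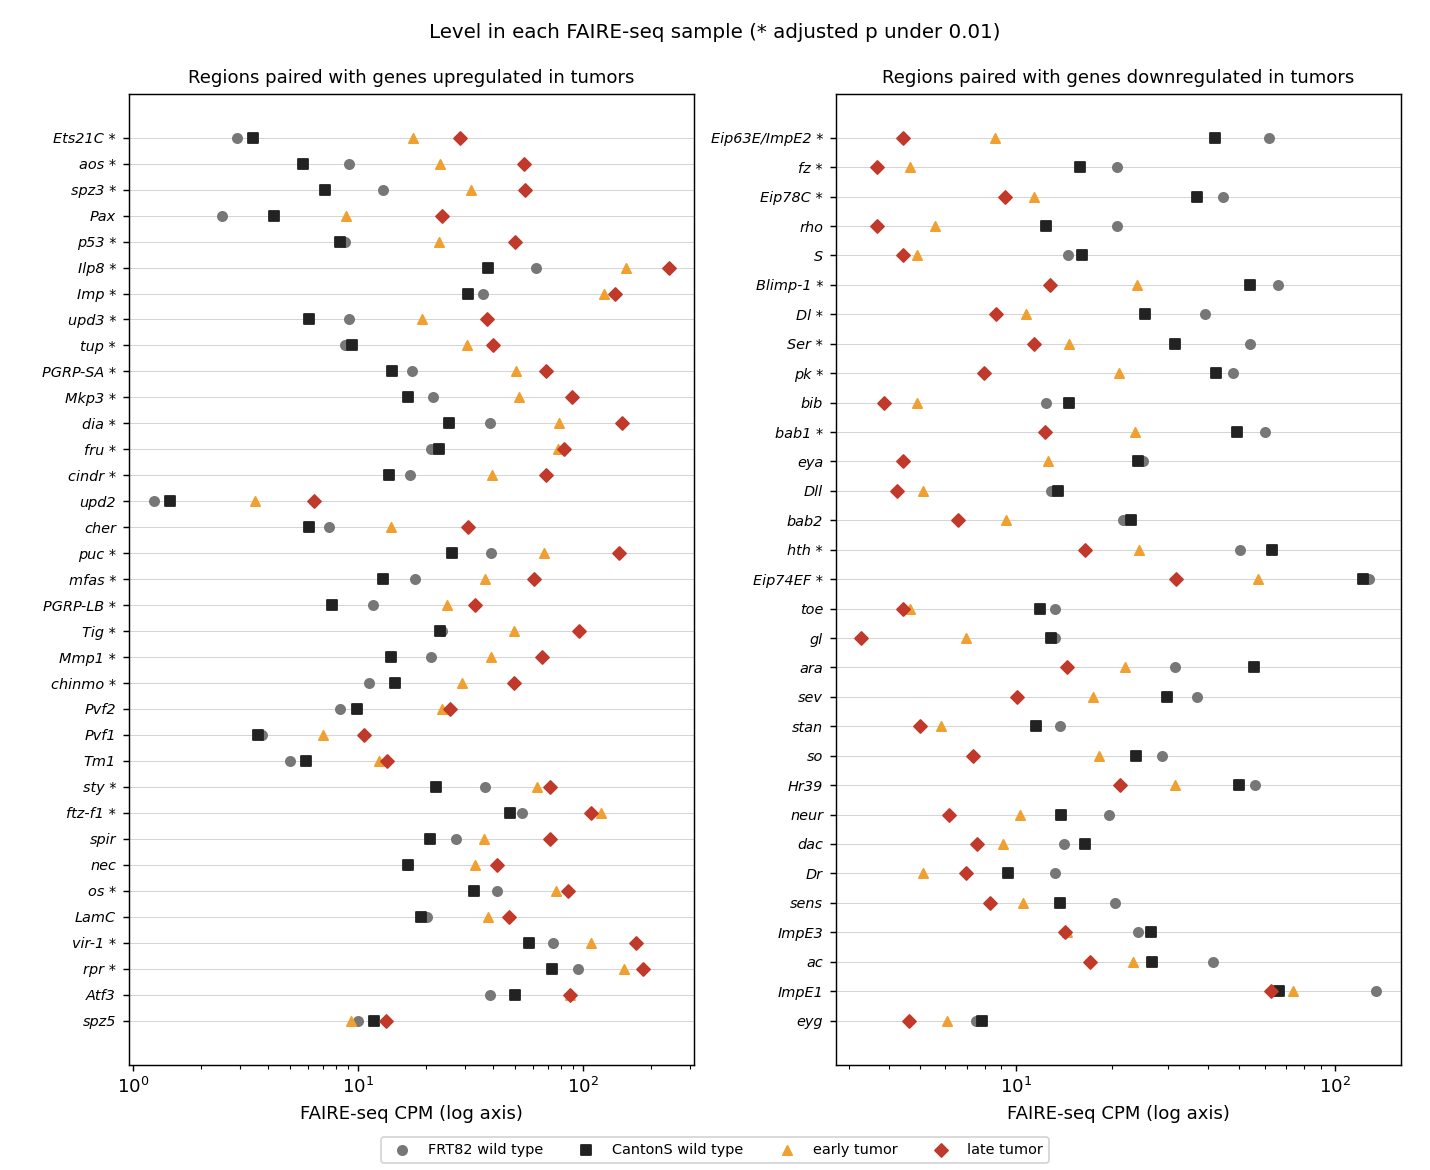
FAIRE-seq level in CPM (log axis) of each listed region in the FRT82 and CantonS wild types and the early and late tumors, with 1 row per region and an asterisk for an adjusted p under 0.01. At all 24 called regions on the left both tumors lie to the right of both wild types, and at all 10 called regions on the right they lie to the left.

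Among the ligands and targets of JAK/STAT signaling, 3 of 4 regions opened, with a list median of 1.48. The upd3 region on X (18171109 to 18171510, dm3), near the gene of a cytokine that activates the JAK/STAT receptor Domeless, had 9.13 and 6.03 CPM in FRT82 and CantonS and 19.3 and 37.6 in the early and late tumor, a log2 fold change of 1.97 ± 0.40 (± SE throughout, adjusted p = 0.00606). The region of os, which encodes the ligand Unpaired, had 41.5, 32.9, 76.0 and 85.9 CPM in the same order (log2 fold change 1.14, adjusted p = 0.00658). The region of vir-1, a gene that JAK/STAT induces in virus infection, had 73.5, 57.7, 109 and 171 CPM (log2 fold change 1.11, adjusted p = 0.00813). The ATAC-seq test did not call the vir-1 region (log2 fold change 2.15, adjusted p = 0.0128). The small region of upd2, which encodes another ligand, had 1.25, 1.47, 3.50 and 6.37 CPM and an adjusted p of 0.0486. In each of these 4 regions, which the study listed as rising, both tumors exceeded both wild types, as they did at 28.5% of all regions. No region of the list was called without CantonS, without the late tumor, with DESeq2's size factors or with a filter on low counts, and only upd3 was called with the upper quartile. When X was scaled separately from the other arms, an alternative chosen after seeing the data, the adjusted p of upd3 was 0.0141 and that of os 0.0238. The 64.7 kb on X that run from the upd2 to the os region hold 41 merged regions. With all arms scaled together, 7 of these opened and none closed, against 2.33% and 0.295% of all X regions. Of these 7, 6 form a run from 18143360 to 18171510 with log2 fold changes from 1.16 to 2.38.

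Of the 6 regions of genes that respond to JNK and the AP-1 factors it activates, 4 opened, and the list median was 1.75. Ets21C, which encodes an ETS family transcription factor, had the largest change of the genes listed here as upregulated. Its region on 2L (548673 to 548905) had 2.91 and 3.42 CPM in FRT82 and CantonS and 17.5 and 28.4 in the early and late tumor (log2 fold change 2.82 ± 0.43, adjusted p = 0.00104). This region heads a run of 4 opening regions within 5.12 kb. The region that Ilp8 shares with beg lies on 3L. Ilp8, whose product is a relaxin-like hormone by which damaged or overgrown discs delay pupariation, had a level there of 61.9, 37.7, 155 and 240 CPM (log2 fold change 2.02 ± 0.26, adjusted p = 0.000394). The region of puc, the phosphatase that dampens JNK, had 39.0, 26.1, 67.1 and 145 CPM (log2 fold change 1.74, adjusted p = 0.00363). For Mmp1, a matrix metalloproteinase, the levels were 21.2, 14.0, 38.9 and 65.6 CPM (log2 fold change 1.61, adjusted p = 0.00421). The regions of cher, which encodes filamin, and Atf3, a bZIP transcription factor, had log2 fold changes of 1.76 and 0.98 and missed the threshold with adjusted p of 0.0162 and 0.0137. Mmp1 and puc were not called without CantonS (log2 fold changes 1.255 and 1.39) or without the late tumor (1.15 and 1.04).

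Among feedback genes of Ras and EGF receptor signaling and ligands of receptor tyrosine kinases, 3 of 5 regions opened (list median 1.41). All 3 belong to inhibitors that the pathway itself induces. The region of aos, a secreted antagonist of the receptor's ligand Spitz, had 9.13, 5.71, 23.1 and 54.4 CPM in FRT82, CantonS, the early and the late tumor (log2 fold change 2.46 ± 0.42, adjusted p = 0.0018). The region of Mkp3, the phosphatase of the MAP kinase, had 21.6, 16.6, 52.0 and 89.6 CPM (log2 fold change 1.92, adjusted p = 0.00101), and that of sty, the inhibitor Sprouty, 36.5, 22.3, 62.2 and 71.2 CPM (log2 fold change 1.22, adjusted p = 0.00934). Pvf1 and Pvf2, which encode ligands of the PDGF and VEGF receptor homolog, had log2 fold changes of 1.27 and 1.41 with adjusted p of 0.0884 and 0.0194. None of the 5 was called without the late tumor, and sty was also not called without CantonS, with total counts, the upper quartile or DESeq2's size factors, or with the filter on low counts.

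Both regions of cell death genes opened. The p53 region had 8.72 and 8.31 CPM in the wild types and 22.8 and 50.0 in the early and late tumor (log2 fold change 2.10, adjusted p = 0.00292). The region of rpr, whose product antagonizes the caspase inhibitor Diap1, was well above the p53 region in the wild types, at 95.1 and 73.0 CPM, and had 153 and 184 CPM in the tumors (log2 fold change 1.01, adjusted p = 0.00644). Neither was called without the late tumor, and rpr was not called without CantonS, with the upper quartile or DESeq2's size factors, or with the filter on low counts.

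All 5 regions of growth and temporal identity regulators opened, against 31.6% of all regions paired with upregulated genes. The list had the largest median among the chosen groups of upregulated genes, 1.85. Imp, an RNA-binding protein of young neural progenitors, had the clearest separation. Its region on X (10702658 to 10703155) had 36.1 and 30.8 CPM in the wild types and 124 and 139 CPM in the tumors (log2 fold change 1.99 ± 0.22, adjusted p = 0.000194), and it lies first in a run of 4 opening regions within 2.59 kb. The region of fru, a BTB zinc finger factor known for male courtship, had 21.2, 22.8, 77.4 and 82.6 CPM (log2 fold change 1.85, adjusted p = 0.000444). The region of tup, a LIM homeodomain factor, had 8.72, 9.46, 30.5 and 39.96 CPM (log2 fold change 1.94, adjusted p = 0.00205), and that of chinmo, a BTB factor of early temporal identity, had 11.2, 14.7, 29.1 and 49.2 CPM (log2 fold change 1.57, adjusted p = 0.00741). ftz-f1, a nuclear receptor of the prepupal ecdysone cascade, had 53.6, 47.3, 121 and 109 CPM (log2 fold change 1.19, adjusted p = 0.00271). At ftz-f1 the early tumor was the higher of the tumors, whereas the other 34 listed regions of upregulated genes were higher in the late tumor. Imp and fru were the members called without the late tumor. chinmo was also not called with DESeq2's size factors, with the filter on low counts or with the upper quartile, at adjusted p from 0.0116 to 0.0130.

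Of the 5 innate immunity regions, 3 opened (list median 1.64). The region of PGRP-SA, a receptor for bacterial peptidoglycan in the Toll pathway, had 17.4, 14.2, 50.6 and 68.5 CPM (log2 fold change 1.94, adjusted p = 0.000735). That of PGRP-LB, an amidase that degrades peptidoglycan, had 11.6, 7.66, 24.9 and 33.0 CPM (log2 fold change 1.64, adjusted p = 0.00949). For spz3, related to the Toll ligand Spätzle, the levels were 12.9, 7.17, 31.7 and 55.0 CPM (log2 fold change 2.19, adjusted p = 0.00169). nec, a serpin of the Toll pathway, missed the threshold (log2 fold change 1.17, adjusted p = 0.0216). The spz5 region was flat, with 9.96 and 11.7 CPM in the wild types and 9.32 and 13.3 in the tumors (log2 fold change 0.05, adjusted p = 0.956), and its value was below 0 under total counts, under the upper quartile, without FRT82 and without the late tumor. None of the 5 was called without the late tumor, and PGRP-LB was not called without CantonS, with total counts, the upper quartile or DESeq2's size factors, or with the filter on low counts.

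The cytoskeleton and adhesion genes had 4 opening regions of 8, with a list median of 1.67. The region of dia, a formin that nucleates actin filaments, had 38.6, 25.4, 78.5 and 149 CPM (log2 fold change 1.86 ± 0.29, adjusted p = 0.0011). The region of cindr, an adaptor of actin and adhesion complexes, had 17.0, 13.7, 39.6 and 68.7 CPM (log2 fold change 1.84, adjusted p = 0.00173). Tig, a matrix ligand of integrins, shares its region with Fic (log2 fold change 1.64, adjusted p = 0.00257), and mfas, a fasciclin domain protein, had 1.70 (adjusted p = 0.00327). The regions of Pax, spir, LamC and Tm1 had log2 fold changes between 1.11 and 2.18 and did not pass. None of the 8 was called without the late tumor.

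Of the 7 regions of ecdysone response genes, which belong to 8 genes, 4 closed, and the list median was -1.49. The group was drawn only from pairs that the study listed as falling. The region of ftz-f1, placed above among the growth and temporal identity regulators, opened (log2 fold change 1.19, adjusted p = 0.00271). The region shared by ImpE2 and Eip63E on 3L (3513377 to 3513774) had 61.9 and 42.1 CPM in FRT82 and CantonS and 8.62 and 4.44 in the early and late tumor (log2 fold change -2.99 ± 0.36, adjusted p = 0.000291). ImpE2 is an ecdysone-inducible gene of discs, and Eip63E encodes a cyclin-dependent kinase. A neighboring region from 3512474 to 3513021 had 66.4, 47.3, 12.4 and 6.56 CPM (log2 fold change -2.59, adjusted p = 0.000394). The region of Eip78C, an early-late nuclear receptor of the ecdysone cascade, had 44.4, 36.8, 11.4 and 9.27 CPM (log2 fold change -1.97, adjusted p = 0.00135). The region of Eip74EF, which encodes an ETS factor of the early puffs, had 127, 122, 57.3 and 31.7 CPM (log2 fold change -1.49, adjusted p = 0.00184). Blimp-1, a zinc finger repressor that times ftz-f1 expression, had 66.0, 54.1, 24.0 and 12.7 CPM at its region (log2 fold change -1.71, adjusted p = 0.00219), the end of a run of 5 closing regions within 13.8 kb. ImpE1, ImpE3 and Hr39 had log2 fold changes of -0.53, -0.82 and -1.01 with adjusted p of 0.229, 0.127 and 0.0267. At ImpE1 the early tumor, at 73.9 CPM, lay between CantonS at 66.7 and FRT82 at 134 CPM, its log2 fold change was 0.03 without FRT82, and it was called, at -1.02, without CantonS. Only the region of ImpE2 and Eip63E was called without the late tumor.

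Of the 6 regions of Notch ligands and planar polarity genes, 4 closed, with a list median of -1.67. The region of fz, the receptor of planar polarity and Wnt signaling, had 20.8, 15.8, 4.66 and 3.67 CPM (log2 fold change -2.12, adjusted p = 0.00436). The regions of the Notch ligands Dl and Ser had 39.0, 25.3, 10.7 and 8.69 CPM and 54.0, 31.5, 14.7 and 11.4 CPM, with log2 fold changes of -1.71 (adjusted p = 0.00619) and -1.69 (adjusted p = 0.00447). The region of pk, a planar polarity protein, had 47.7, 42.4, 21.0 and 7.91 CPM (log2 fold change -1.65, adjusted p = 0.00891). bib and stan did not pass (adjusted p = 0.0202 and 0.0735). None was called without the late tumor, Dl and Ser not without FRT82, and pk not when X was scaled separately, with DESeq2's size factors or with the filter on low counts.

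Of the 6 retinal determination and eye identity regions 1 closed, that of hth, a homeodomain factor that keeps anterior eye progenitors undifferentiated, with 50.2, 63.1, 24.2 and 16.4 CPM (log2 fold change -1.49, adjusted p = 0.00316). eya, which encodes a phosphatase and coactivator needed to form the retina, had 24.9, 24.1, 12.6 and 4.44 CPM (log2 fold change -1.54, adjusted p = 0.0298). The list median was -1.25. Without the early tumor, eya, hth and so passed, and ATAC-seq called 5 of the 6. Of the 7 regions of photoreceptor and proneural differentiation genes, none passed at an adjusted p under 0.01 in edgeR, with a median of -1.27 and log2 fold changes from -1.81 (rho, a protease that activates Spitz) to -0.74 (ac, a proneural factor). Both tumors were below both wild types at all 7, against 25.9% of all regions. The study listed these regions as falling, so their direction is not independent evidence. For sev, the receptor that specifies the R7 photoreceptor, the levels were 36.9, 29.7, 17.5 and 10.0 CPM (adjusted p = 0.0276). Without the early tumor, S, gl, rho and sev passed, and without CantonS rho. ATAC-seq called 6 of the 7. The study chose its lists on the ATAC-seq samples too, and ATAC-seq called 264 of the 276 regions paired with downregulated genes. The ATAC-seq calls at the eye identity and photoreceptor regions are thus not independent evidence. Of the 5 appendage patterning regions, that of bab1, a BTB factor of leg and antenna, closed with 60.2, 49.1, 23.5 and 12.4 CPM (log2 fold change -1.61, adjusted p = 0.00379), and Dll, bab2, ara and Dr did not pass. hth and bab1 were not called without the late tumor.

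The study's lists pair 485 of the 36506 regions with a gene, and most of the largest changes described next are in regions without a pair. Among regions outside 2R with a mean of at least 20 reads, the largest opening was on 3L from 23826222 to 23826434, with 6 reads in FRT82, 10 in CantonS, 89 in the early and 357 in the late tumor (log2 fold change 4.53 ± 0.56, adjusted p = 0.00045). Its ATAC-seq level was below 1 CPM in each of the 3 wild types, 229 CPM in the early and 2214 CPM in the late tumor, and the ATAC-seq test did not call it (adjusted p = 0.0174). From read counts, a change of chromatin, a difference in copy number and a difference in mapping cannot be told apart at this region. A run of 4 opening regions on 3L from 24162495 to 24168781 was also among the 10 largest. In it, the region paired with Snap25, a synaptic SNARE protein, had 2, 6, 46 and 95 reads (log2 fold change 3.93). The other 3 had between 2.77 and 2.95. All 5 lie toward the end of the 3L sequence that the merged regions cover, which reaches 24531335. Outside this stretch, the largest opening regions were on 3L from 2401389 to 2401674 (log2 fold change 3.01), at Ets21C, on X from 2431348 to 2431884 (2.75), on X from 17730343 to 17730587 (2.73) and on 2L from 3477721 to 3477896 (2.70). ATAC-seq did not call the region at 3L 2401389 (adjusted p = 0.0515) or that at 3L 24167848, next to Snap25 (adjusted p = 0.0141). The region on X from 2431348 had 11.2, 7.99, 41.0 and 83.6 CPM in FRT82, CantonS, the early and the late tumor.

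The opening regions with the lowest p were on 3L from 8653322 to 8654193, with 27.8, 29.5, 106 and 163 CPM (log2 fold change 2.23 ± 0.25, adjusted p = 0.000179), and that of Imp. They were followed by the regions of Bsg, which encodes an immunoglobulin family membrane protein (36.1, 31.5, 110 and 177 CPM), and of l(1)G0232 (36, 92, 238 and 493 reads), and by a region on 3L from 1030467 to 1031523 (51.9, 47.9, 144 and 175 CPM). All 5 were called in ATAC-seq too.

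The region with the lowest p of all named ones closed, on 2L from 2202488 to 2203710, with 199 and 206 CPM in the wild types and 37.8 and 23.0 in the tumors (log2 fold change -2.75 ± 0.24, adjusted p = 1.84e-05). Its neighbor from 2202056 to 2202343 had 59.4, 65.5, 9.32 and 4.83 CPM and the largest closing change under the same limits (log2 fold change -3.16 ± 0.32, adjusted p = 8.39e-05). A region on 3R from 24311618 to 24312022 had 56.9 CPM in FRT82 and 16.1 in CantonS, and 5.83 and 2.32 in the tumors (log2 fold change -3.14). There the wild types differed by more than CantonS differed from the early tumor on the linear scale, and ATAC-seq gave an adjusted p of 0.0700. The others were on X from 1466159 (log2 fold change -2.72), on 2L from 16597686 at CG42389 (-2.63), on 3R from 26903316 (-2.51), on 3L from 21245529 (-2.51) and on 3R from 19322444 (-2.45). ATAC-seq did not call the region at 3R 26903316 (adjusted p = 0.560). DESeq2 did not call the regions at 3R 24311618, 3L 21245529 and 3R 19322444, with adjusted p from 0.0143 to 0.0314. Regions that changed the same way with gaps of at most 20 kb were joined into runs. The 575 opening regions formed 374 runs, of which 256 were single regions and 52 held 3 or more, and the 285 closing regions formed 219, of which 177 were single. The longest run of closing regions held 8 of 10 merged regions on 2L from 18455442 to 18469102, with log2 fold changes from -2.27 to -1.25, and summed levels of 615, 541, 223 and 139 CPM in FRT82, CantonS, the early and the late tumor. All 8 were called by ATAC-seq as well. A run of 4 closing regions on 3L from 10968691 to 10992243, which includes the region of klu, had summed levels of 236, 202, 83.4 and 54.4 CPM. The most compact run of 5 opening regions lay on X from 5793160 to 5796415, with summed levels of 201, 231, 478 and 586 CPM.

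At 3 closing regions, named after their values were seen, neither tumor had a read. On 2L from 10690714 to 10690826, FRT82 had 23 reads and CantonS 45, so that the tumors were at least 27.3-fold lower, taking 3 reads over both tumors as the floor. On 2R from 21144971 to 21145346 they had 41 and 164 reads, and the tumors were at least 82.3-fold lower. The third, from 21144397 to 21144496, had 15 and 50 reads (at least 26.1-fold lower). The region at 21144971 is the last merged region of 2R. By ATAC-seq it had between 2.89 and 5.63 CPM in the wild types, 0.192 and 0 CPM in the early and late tumor, and 3.61 and 4.26 CPM in the discs that overexpressed Upd. The region on 2L had ATAC-seq reads in DGRP-208 and in both Upd libraries, and none in FRT82, in Optix-GFP or in the tumors. From read counts, closed chromatin cannot be told apart from DNA that is absent from the tumor genotype or that its reads do not map to.

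Opening and closing regions were spread unevenly over the arms. On X, 150 regions opened and 19 closed, 2.33% and 0.295% of its 6441 regions, against 425 and 266, or 1.41% and 0.885%, on the other arms. The median log2 fold change was 0.16 on X and between -0.04 and 0.01 on the other arms. X held 15.3% and 16.3% of the reads of FRT82 and CantonS, and 17.4% and 17.7% of those of the early and late tumor. By ATAC-seq the median on X was -0.17, with 719 opening and 842 closing regions. With X scaled separately, chosen after seeing the data, 82 regions of X opened and 30 closed, so that the excess on X depended on the scaling. On 4, where 374 regions were tested, none was called by edgeR, with 38 at an unadjusted p under 0.05.

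**Figure D4:**
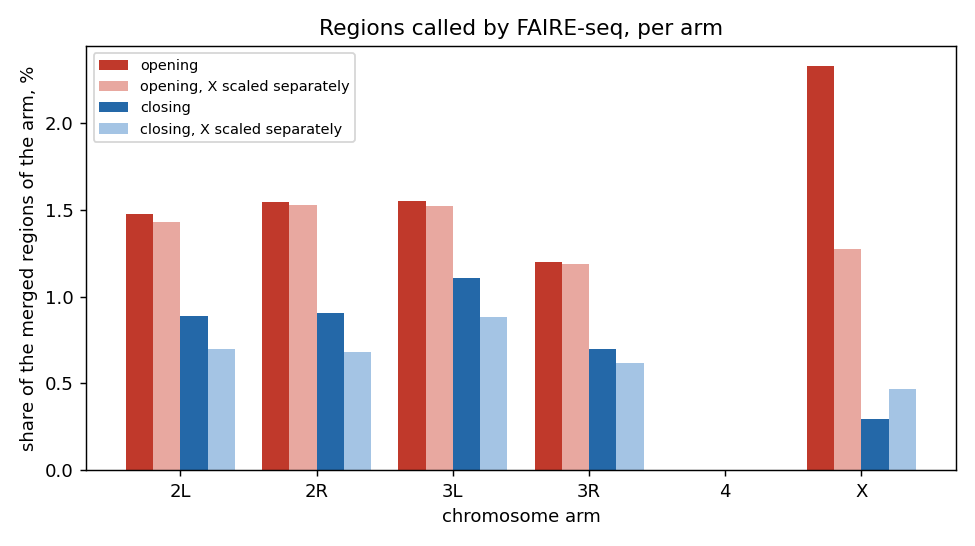
Share of the merged regions of each chromosome arm (y axis, percent) that opened (red) or closed (blue) by FAIRE-seq, with paler bars for the fit that scaled X separately. On X the opening share was 2.33% with a common scaling, and 82 in place of 150 regions opened with a separate one.

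ATAC-seq, in which a transposase cuts open DNA, was done on other libraries of the same conditions: 3 wild types (FRT82, DGRP-208 and Optix-GFP) and 1 early and 1 late tumor. That test called 13.5% of all regions opening and 12.8% closing. It called 552 of the 575 regions that opened by FAIRE-seq in the same direction, or 96.0%, and 276 of the 285 closing ones, or 96.8%, and none in the opposite direction. The median ATAC-seq log2 fold change was 2.64 at opening and -2.68 at closing regions, and it was larger in size than that of FAIRE-seq at 530 and 263 of them, and at 26150 of all 36506 regions. The interaction of tumor and technique passed at 0.011% of all regions, 3 of which opened by FAIRE-seq. Of the 23 opening and 9 closing regions that ATAC-seq did not call, 5 and 1 had the opposite sign there. With any ATAC-seq library left out, at least 480 opening and 251 closing regions were called in the same direction.

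A run of 6 opening regions on 2R from 3128437 to 3136889, named after its values were seen, had unlike values in the assays. By FAIRE-seq their summed level was 345 and 282 CPM in FRT82 and CantonS and 806 and 1050 CPM in the early and late tumor, and their log2 fold changes were between 1.28 and 2.26. By ATAC-seq 5 of the 6 were not called, with log2 fold changes from -0.45 to -0.09. The longest of them, from 3133614 to 3134718, had 157, 116, 350 and 479 CPM by FAIRE-seq. By ATAC-seq it had between 656 and 1050 CPM in the wild types, 584 and 716 CPM in the early and late tumor, and 158 and 190 CPM in the discs that overexpressed Upd. The difference between the techniques had an adjusted p of 0.0137 there, which misses the threshold. A change of chromatin, a difference in copy number between the genotypes and a difference in mapping cannot be told apart from these counts.

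Upd overexpression, in which GMR-gal4 drives UAS-UPD:GFP in differentiating cells of the eye disc, was measured by ATAC-seq in 2 libraries against the same 3 wild types, and shares no library with the FAIRE-seq test. It called 0.00548% of all regions higher and 0.011% lower in edgeR. None of the 575 opening regions was called higher in Upd, and 3 were called lower, all of them in the run on 2R just described. Without either Upd library no opening region was called lower, and without the FRT82 wild type 1 was. None of the 285 closing regions was called in edgeR. At an unadjusted p under 0.05, 44 opening regions were higher and 9 lower, and 2 closing regions were higher and 97 lower, against 1143 higher and 1433 lower among all 36504 regions tested. DESeq2, an alternative chosen after seeing the data, called 5 opening and 1 closing region lower, and none higher. The median log2 fold change in Upd was 0.19 at opening and -0.36 at closing regions, against -0.01 over all regions. It was above 0 at 69.2% of the opening and 9.82% of the closing regions, against 49.1% of all. Imp had 1.32 (unadjusted p = 0.000825, adjusted p = 0.314) and the ImpE2 and Eip63E region -0.83 (unadjusted p = 0.00191, adjusted p = 0.424), while Ets21C had -0.03 and p53 0.47. At the 41 regions from upd2 to os, the median was 0.01 and none was called in edgeR.

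**Figure D5:**
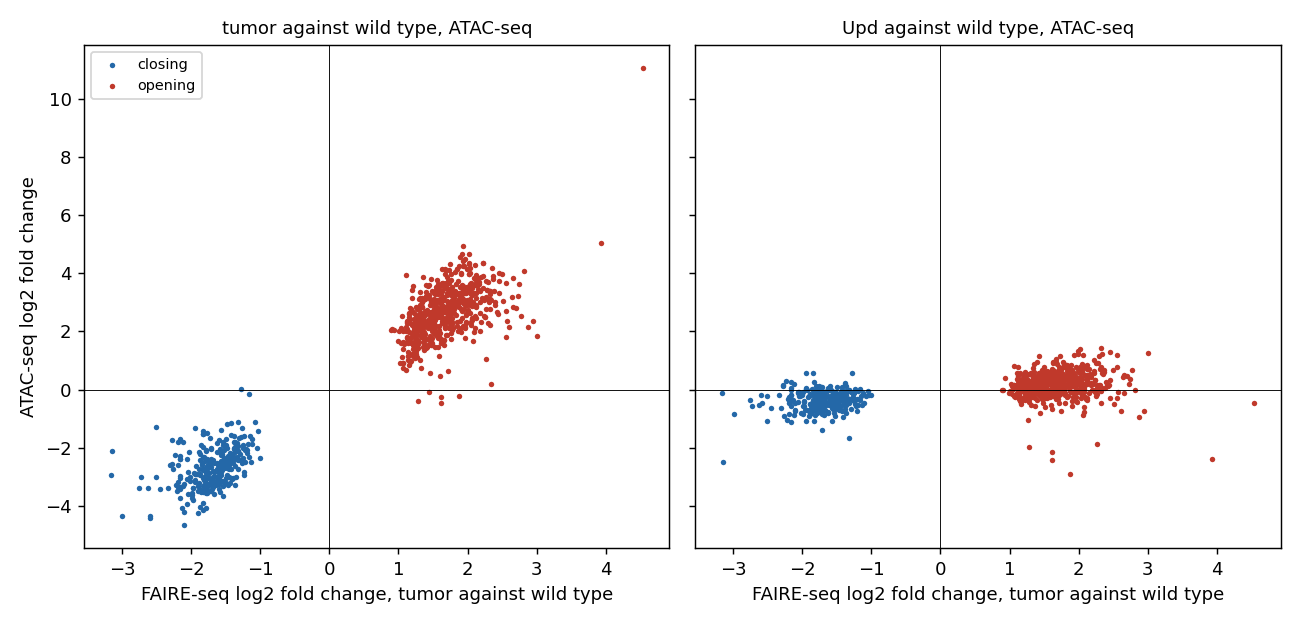
ATAC-seq log2 fold change (y axis) of tumor against wild type (left) and of Upd overexpression against wild type (right) at the regions opening (red) and closing (blue) by FAIRE-seq, against their FAIRE-seq log2 fold change (x axis); 3 regions without tumor reads lie outside the range. The tumor medians are 2.64 and -2.68, and those of Upd 0.19 and -0.36.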

How the data were processed

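FAIRE-seq was done on pooled eye-antennal discs. The authors trimmed adapters, aligned to dm3 with bowtie2, kept reads of sufficient mapping quality that were not from Wolbachia, ran MACS2 on each library and joined the resulting peaks. The deposited values are raw read counts per joined region, without normalization. The positions of peaks were deposited without a score, and the CTCF peaks likewise. Region starts are given here counting from 1.

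From the counts, CPM and log2 fold changes were computed with edgeR 4.0.16 in R 4.3.3 (TMM, robust quasi-likelihood F-test, Benjamini-Hochberg over all regions with a count above 0, threshold 0.01). SE is the size of the log2 fold change over the root of its F statistic. Differences between single libraries used log2(CPM + 1). ATAC-seq and Upd were fitted alike on their own libraries, and the interaction on 9 samples. bedtools 2.31.1 gave overlaps. Regions within 20 kb of each other formed runs. The fits were tested on simulated data. Reads carry no molecular identifiers, so that counts can include PCR copies.

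Named regions were the listed genes, the 10 largest opening and closing regions and the 5 of lowest p in each direction (at least 20 reads on average, both tumors on 1 side of both wild types, outside 2R). The comparison and the gene lists were chosen with earlier results of these data known. Alternatives were DESeq2 1.42.0, other scalings, a filter on low counts, a threshold of 0.05, a dispersion that is not robust and leaving out each library. Sequences were not analysed here.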

Additional observations from a re-analysis of the deposited data

Results flagged for a closer look

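The change in tumors differed between FAIRE-seq and ATAC-seq at 3 regions that opened by FAIRE-seq, by the test of the interaction itself. On 3L from 6456314 to 6457523, the FAIRE-seq log2 fold change minus that of ATAC-seq was -2.76, with 1.93 by FAIRE-seq and 4.66 by ATAC-seq. On 3R from 9830603 to 9831260 the difference was -2.85, and on 3R from 27246227 to 27246809 it was -2.58.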

How the results depend on the processing

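With each FAIRE-seq library left out in turn, the opening regions numbered from 44 (without the late tumor) to 1798 (without the early tumor), the closing regions from 26 to 1156 (the same libraries), and the share of opening from 44.1% to 71.2%. The regions paired with upregulated and downregulated genes that were called numbered between 8 and 126 and between 6 and 130. In these fits a lone library is assumed to vary like the other group. With an adjusted p under 0.05, 1718 regions opened and 1107 closed (60.8% opening), 135 and 138 of them paired with upregulated and downregulated genes. The filter of at least 10 reads in 2 samples gave 375 opening regions, with a share of 63.3%, and total counts gave 460 closing regions, with a share of 53.3%. The share was 62.6% with DESeq2 and 52.9% with the upper quartile. The wild type peak share of opening and closing regions was 12.5% and 77.2% when 40% of the merged region had to be covered, against 44.6% of all regions. DESeq2, run for Upd with no library left out, called 5 opening and 1 closing region lower. In edgeR, 3 opening regions and 0 closing regions were called lower in Upd. Without single libraries these numbers were between 0 (either Upd library) and 4 (Optix-GFP) and between 0 and 1 (DGRP-208 or Optix-GFP), and the ATAC-seq calls in the same direction were between 480 and 552 and between 251 and 279. The value of spz5 was -0.062 with total counts and -0.080 with the upper quartile. Without single libraries it was between -0.26 (the late tumor) and 0.28 (the early tumor), and that of ImpE1 was between -1.02 (CantonS) and 0.034 (FRT82). The causes were not tested.

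Of the 57 named regions that were called, 37 lost the call under at least 1 alternative, and 19 when the fit without the late tumor is set aside. PGRP-LB, chinmo, os, pk, rpr, sty, upd3 and vir-1 lost it with DESeq2's size factors and with the filter. Depth limits the shallow regions, since 8 regions were called in the lowest of 4 groups by mean count.

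No paired analysis was possible. The FAIRE-seq wild types differ by strain and the tumors by stage, and the labels match no wild type library to a tumor library.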
